A study of Mus musculus with 20 samples.

Results

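The relation between striatal gene expression and body mass was examined in all 20 of the 20 sequenced male mice, with the mean of each of the 4 line by treatment groups removed, and again in the 10 Control and the 10 High-Active mice as separate sets. The mice were about 6.5 months old and came from generation 17 of a breeding experiment founded on an intercross of 8 inbred strains. The High-Active line had been bred within families for distance traveled in the home cage, and the Control line had been bred from randomly chosen mice. Of each line, 5 mice had been injected with saline and 5 with 0.25 mg/kg amphetamine, and the whole striatum of both sides, dorsal and ventral, was taken 2 hours later. Both lines are segregating stocks kept without sibling mating, so mice within a group differ in genotype, and each line stands for 1 selected or unselected population without a replicate line.

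The striatum receives signals about energy stores as well as about reward. Leptin from fat and insulin from the pancreas act on dopamine neurons and on striatal neurons, and striatal dopamine receptors, opioid peptides and endocannabinoid receptors take part in the drive to eat and in voluntary movement. Medium spiny neurons, the projection neurons of the striatum, carry either the D1 or the D2 dopamine receptor and make up most of its neurons. Body mass at one time point sums fat, lean tissue and skeletal size, and the labels do not divide it.

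The number of reads on genes ran from 32388971 to 53710713 per mouse, and 14792 genes passed a level of 1 CPM (reads scaled to a common library size) in at least 3 mice. The markers of medium spiny neurons were present at high levels in every mouse, from 9.89 to 10.68 log2 CPM for Penk, the enkephalin precursor, and from 7.40 to 8.17 log2 CPM for Drd1. Markers of neighboring cortex varied between mice, with a summed level of 807 to 2075 CPM over 18 cortical excitatory neuron genes, and the relation of this sum to mass is given with the other measures. The slopes given here are log2 fold changes per 10 g of body mass from edgeR's quasi-likelihood test, with adjusted p from the Benjamini-Hochberg method over all 14792 genes and a threshold of 0.1.

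Body mass ranged from 24.2 to 47.4 g. The 5 Control saline mice weighed 24.2, 31.5, 36.1, 41.0 and 45.4 g, and the 5 Control amphetamine mice weighed 36.0, 37.9, 40.4, 45.3 and 45.4 g. The High-Active saline mice weighed 24.5, 33.2, 34.0, 34.9 and 42.0 g, and the High-Active amphetamine mice weighed 26.6, 28.2, 31.2, 37.9 and 47.4 g. All 4 groups overlapped, and the Control amphetamine group spanned the narrowest range. Control mice averaged 38.3 g ± 6.81 (SD, n = 10) and High-Active mice 34.0 g ± 7.05 (SD, n = 10). The difference was smaller than either SD (High-Active minus Control -4.33 g, two-sided permutation test, p = 0.179). Amphetamine-injected mice were 2.95 g heavier than saline-injected mice (two-sided permutation test, p = 0.365). Both tests permuted all 20 mice, without regard to family.

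In the High-Active line 9 of 10 mice had a sibling in the experiment. The 5 High-Active families covered 24.5 to 26.6 g, 28.2 to 33.2 g, 31.2 to 34.9 g, 37.9 g for a mouse alone, and 42.0 to 47.4 g, and 91.8% of the variance of mass in this line lay between families. In the Control line 4 of 10 mice had a sibling, and the members of these 2 families differed by 0.1 and 8.9 g. Families accounted for 90.5% of the variance of mass there, a share that 8 families among 10 mice make large in itself. In High-Active mice, body mass and family therefore cannot be told apart. The p-values of the mass differences above and the p-values below count mice of the same parents as independent.

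**Figure D1:**
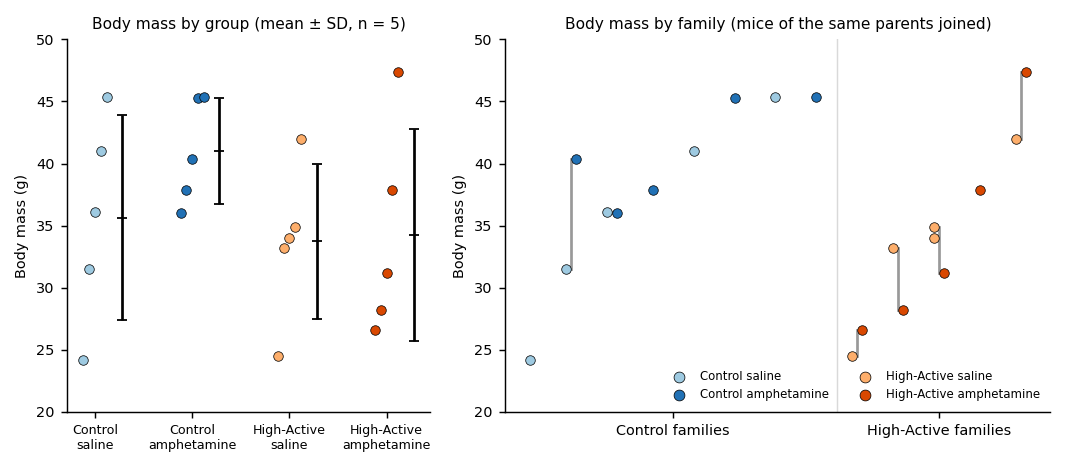
Body mass in grams of each of the 20 mice by group (left, with the mean ± SD of 5 mice) and by family (right, with mice of the same parents joined by a line and colored by group). The 4 groups overlap, and 4 of the High-Active families hold more than 1 mouse.

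Over the 20 mice no gene had a slope on body mass past the threshold, 0 of 14792 genes (0% called). At an unadjusted p under 0.05 there were 741 genes, 5.01% of those tested, where an even spread of p-values gives 740. Of these, 401 had a positive slope (2.71% of genes tested) and 340 a negative slope (2.3%). Other tools called few genes, 6 with DESeq2 and 13 with edgeR's likelihood-ratio test on robust dispersions. The median half-width of the 95% confidence interval of a slope was 0.11 log2 per 10 g, which is a change of 8.19%, and over 4 equal classes of genes by level it went from 0.27 in the lowest to 0.075 in the highest. For 13874 genes, 93.8% of those tested, the whole interval lay within a 1.5-fold change per 10 g in either direction.

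**Figure D2:**
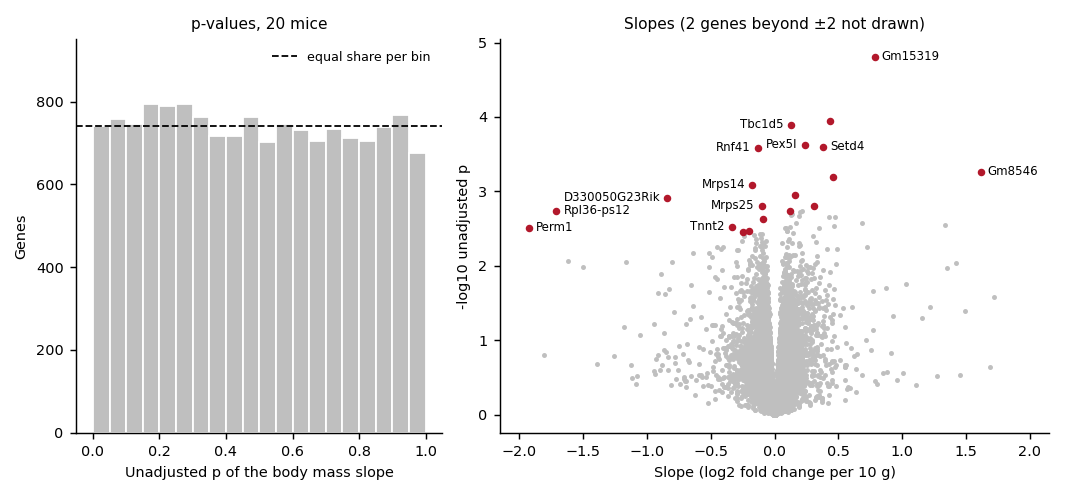
Left, number of genes by unadjusted p of the body mass slope in 20 mice, with a dashed line at an equal share per bin. Right, slope in log2 fold change per 10 g against -log10 of the unadjusted p, one point per gene, with the 10 genes of smallest p in each direction in red. The bin of p under 0.05 holds 741 genes, at the dashed line.

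The gene with the smallest p was Gm15319, a predicted protein-coding gene (GRCm38 chromosome 8, 20337664 to 20363210, minus strand), with a slope of +0.78 ± 0.13 (SE, n = 20 mice) and an adjusted p of 0.233 in edgeR's quasi-likelihood test. It was weakly expressed, at 23 to 156 reads per mouse, and the counts of predicted genes with related copies are uncertain. Its slope was +0.83 in Control and +0.74 in High-Active mice. ENSMUSG00000044794, an identifier without a symbol in the annotation used, followed with +0.44 per 10 g. Among the other genes of smallest p and positive slope were Gm8546 (+1.61) and Gm6483 (+0.46), both annotated as pseudogenes, and the transcript 9930014A18Rik (+0.31). The counts of such copies are uncertain, since reads with several equal matches were not assigned to a gene.

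Tbc1d5, which encodes a Rab GTPase-activating protein of the endosome and autophagosome (chromosome 17, 50733124 to 51179352, minus strand), had the smallest p among well-annotated genes. From the lightest to the heaviest mouse of each group, its levels were 5.21, 5.20, 5.21, 5.39 and 5.43 log2 CPM in Control saline and 5.31, 5.32, 5.20, 5.45 and 5.39 in Control amphetamine mice. They were 5.06, 5.33, 5.25, 5.19 and 5.40 log2 CPM in High-Active saline and 5.18, 5.29, 5.26, 5.36 and 5.43 in High-Active amphetamine mice. The heaviest mouse of 3 groups had the highest level, and the 4 groups overlapped. The slope was +0.13 ± 0.026 (SE), a 9.16% higher level per 10 g, with an adjusted p of 0.626 in edgeR's quasi-likelihood test. The group-centred level and mass had r = 0.82 (permutation test, p = 8e-05) and rho = 0.79 (permutation test, p = 0.00031), and r was 0.84 without the 2 mice of most extreme centred mass. Its slope was +0.12 in Control and +0.13 in High-Active mice.

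Pex5l encodes an auxiliary subunit of the HCN pacemaker channels (chromosome 3, 32949408 to 33143247, minus strand). Ordered by mass, its levels were 6.57, 6.55, 6.84, 7.26 and 7.05 log2 CPM in Control saline and 6.96, 6.84, 7.16, 7.16 and 7.02 in Control amphetamine mice. In High-Active saline mice they were 6.45, 6.86, 6.37, 6.76 and 6.80 log2 CPM, and in High-Active amphetamine mice 6.71, 6.78, 6.84, 7.11 and 7.08. Within each group the 2 heaviest mice exceeded the lightest, and the groups overlapped. The slope was +0.24 ± 0.052 (SE), or 17.7% per 10 g, with r = 0.74 (permutation test, p = 0.00122), rho = 0.77 (permutation test, p = 9e-04) and an adjusted p of 0.643 in edgeR's quasi-likelihood test.

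Setd4, a gene of the SET-domain methyltransferase family (chromosome 16, 93583457 to 93604063, minus strand), was expressed at 2.1, 3.16, 3.28, 2.68 and 3.53 log2 CPM in High-Active saline mice ordered by mass and at 2.61, 2.69, 2.40, 3.13 and 3.42 in High-Active amphetamine mice. In Control saline mice it was at 3.16, 3.26, 3.43, 3.49 and 3.56 log2 CPM, and in Control amphetamine mice at 3.14, 3.37, 3.19, 3.41 and 3.15. The High-Active mice varied more than the Control mice, and the lightest of them had the lowest level. The slope was +0.38 ± 0.084 over the 20 mice (SE), +0.17 in Control and +0.55 in High-Active mice, and the difference between the lines did not pass the threshold (unadjusted p = 0.0209). Over the 20 mice r was 0.75 (permutation test, p = 0.00019), rho was 0.70 (permutation test, p = 0.00106) and the adjusted p in edgeR's quasi-likelihood test was 0.643.

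Fem1a, a substrate-recognition subunit of a ubiquitin ligase, and Ankrd28, a regulatory subunit of a protein phosphatase, had slopes of +0.16 and +0.12. Both were positive in each line, at +0.067 and +0.23 for Fem1a and +0.14 and +0.10 for Ankrd28 in Control and High-Active mice.

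Among negative slopes, the smallest p belonged to Rnf41, which encodes a ubiquitin ligase that limits ErbB receptor levels (chromosome 10, 128411657 to 128441441, plus strand). From light to heavy, it was at 6.03, 5.83, 5.77, 5.77 and 5.84 log2 CPM in Control saline and 5.87, 5.94, 5.86, 5.73 and 5.80 in Control amphetamine mice. In High-Active saline mice it was at 5.98, 6.05, 5.85, 5.83 and 5.76 log2 CPM, and in High-Active amphetamine mice at 5.94, 6.07, 6.08, 5.90 and 5.69. The heaviest High-Active mouse of each treatment had the lowest level of its group. The slope was -0.13 ± 0.028 (SE), with r = -0.77 (permutation test, p = 0.00083), rho = -0.76 (permutation test, p = 0.00065) and an adjusted p of 0.643 in edgeR's quasi-likelihood test. Without the 2 mice of most extreme centred mass, r was -0.55.

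Mrps14 and Mrps25 encode proteins of the small subunit of the mitochondrial ribosome, which translates the respiratory chain subunits of the mitochondrial genome. Mrps14 (chromosome 1, 160195215 to 160202170, plus strand) was at 5.20, 4.98, 4.68, 4.64 and 4.72 log2 CPM in High-Active saline and 4.92, 5.10, 5.05, 4.66 and 4.61 in High-Active amphetamine mice. In Control mice it was at 4.81, 4.81, 4.72, 4.64 and 4.72 log2 CPM after saline and 4.78, 4.70, 4.71, 4.68 and 4.71 after amphetamine, a narrower range. Its slope was -0.17 ± 0.043 (SE, n = 20 mice), with r = -0.71 (permutation test, p = 0.00068), rho = -0.78 (permutation test, p = 0.00028) and an adjusted p of 0.956 in edgeR's quasi-likelihood test.

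Mrps25 (chromosome 6, 92169525 to 92184033, minus strand) was at 5.42, 5.15, 5.22, 5.09 and 5.02 log2 CPM in Control saline mice and at 5.12, 5.04, 5.16, 5.06 and 5.08 in Control amphetamine mice. In High-Active mice it was at 5.12, 5.04, 5.01, 5.00 and 5.05 log2 CPM after saline and 5.05, 5.09, 5.07, 5.05 and 4.92 after amphetamine. The lightest Control mouse was highest of all 20, and the heaviest High-Active mouse lowest. Its slope was -0.096 ± 0.026 (SE), with r = -0.74 (permutation test, p = 0.00102) and rho = -0.67 (permutation test, p = 0.00581), and r was -0.54 without the 2 mice of most extreme centred mass, which are these same 2 mice. The adjusted p was 0.956 in edgeR's quasi-likelihood test.

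**Figure D3:**
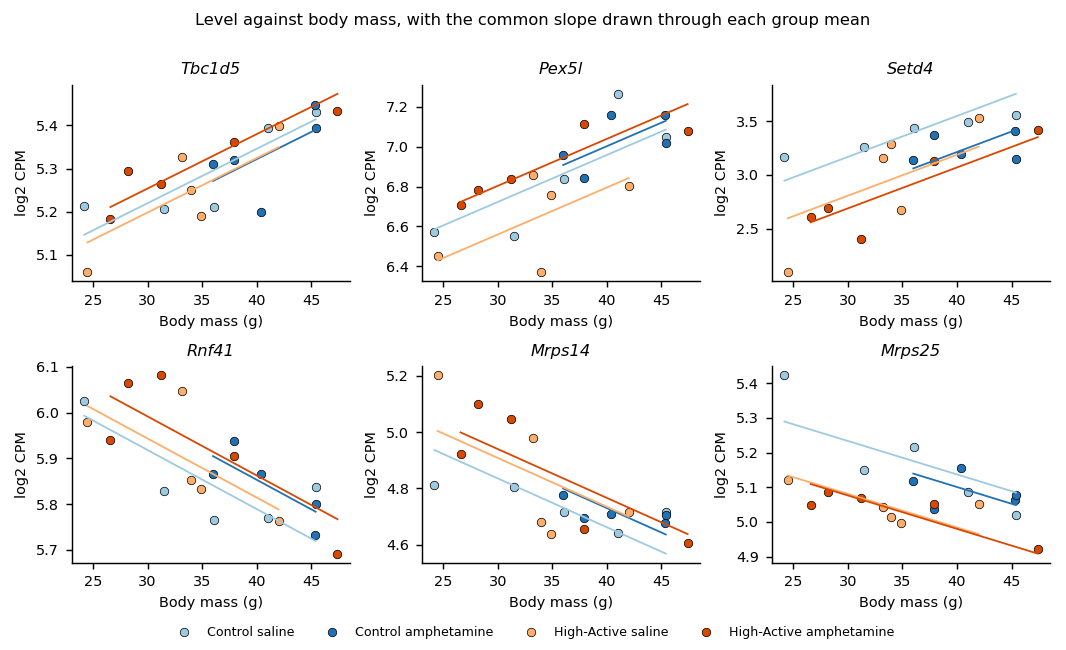
Level in log2 CPM against body mass in grams for the 3 annotated genes of smallest p in each direction, one point per mouse, colored by group, with the common slope of the 20 mice drawn through each group mean. The common slope is positive for Tbc1d5, Pex5l and Setd4 and negative for Rnf41, Mrps14 and Mrps25, with mice scattered on both sides of the lines.

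The remaining genes of smallest p and negative slope were D330050G23Rik (-0.84), Rpl36-ps12 (-1.71), Thap4 (-0.090), Tnnt2 (-0.33), Perm1 (-1.93), Morc4 (-0.20) and Gm4963 (-0.24). The slope of D330050G23Rik was -0.13 in Control and -1.40 in High-Active mice, and that of Rpl36-ps12 was -0.22 and -2.51. Rpl36-ps12 was at 6 to 23 reads per mouse in Control and 8 to 307 in High-Active mice. Tnnt2 encodes the cardiac form of troponin T, and Perm1 a muscle regulator of oxidative metabolism. Perm1 was at 1 to 72 reads per mouse. It was at 0.91, -3.43, -3.11, -3.26 and -3.03 log2 CPM in High-Active saline mice from light to heavy and at 0.45, 0.05, -3.49, -2.75 and -3.06 in High-Active amphetamine mice. In Control mice it ranged from -3.83 to 0.61 log2 CPM, without an order by mass, so that the slope rested mainly on 3 light High-Active mice. All these genes were chosen by their p in the same 20 mice, and their slopes describe these mice.

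The receptors of the circulating signals of energy stores did not pass the threshold. Lepr, the leptin receptor, had a slope of +0.021 with a 95% confidence interval of -0.24 to +0.28 and ranged from 1.00 to 2.17 log2 CPM over the 20 mice, and the heaviest mouse was highest in 1 of the 4 groups. Insr, the insulin receptor, was at 5.81 to 6.37 log2 CPM and had a slope of -0.11 with an interval of -0.21 to -0.014 (unadjusted p = 0.0276, adjusted p = 0.956 in edgeR's quasi-likelihood test), at -0.088 in Control and -0.13 in High-Active mice. Mc4r, the melanocortin receptor that restrains feeding, had a slope of -0.052 (interval -0.23 to +0.12), and Fto, the gene at the strongest common locus for human body mass, had -0.011 with a narrow interval of -0.065 to +0.043. Over 42 insulin, IGF and leptin signaling genes the median slope was 0.017, and 2 had a positive and 2 a negative slope at p under 0.05, beside 2.71% and 2.3% of all genes. These were Socs2, a suppressor of growth hormone signaling (+0.11), Igf2r, a receptor that clears IGF-II (+0.065), Slc2a1, the glucose transporter of the blood-brain barrier (-0.11), and Insr. None passed the threshold after adjustment, and without single mice each count ran from 0 to 3.

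Of 28 energy balance peptides and receptors, 21 had a negative slope, beside 48.4% of all genes. The median was -0.058, -0.11 in Control and -0.020 in High-Active mice, and ran from -0.085 to -0.047 without single mice. Cnr1, the cannabinoid receptor of the brain (+0.18), and Pmch, the precursor of melanin-concentrating hormone (-1.62), had p under 0.05, beside 5.01% of all genes. The Pmch slope rested on few mice. It was at 3.92 log2 CPM in the High-Active amphetamine mouse of 28.2 g and at 2.47 in the High-Active saline mouse of 24.5 g, and between -2.12 and 0.27 log2 CPM in the other 18 mice. Pmch neurons lie in the lateral hypothalamus, outside the dissected region. In 24 genes near human body mass index loci, 20 of which were tested, the median slope was -0.003. Nrxn3, a presynaptic adhesion molecule (+0.070), was the 1 gene with p under 0.05, beside 5.01% of all genes.

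The genes of dopamine signaling and of medium spiny neurons did not pass the threshold. Drd1 had a slope of +0.0057 (interval -0.16 to +0.17), and Drd2, the receptor of the other projection neurons, +0.055 (-0.093 to +0.20). The neuropeptide precursors Penk, Tac1 and Pdyn had +0.053 (-0.10 to +0.21), -0.041 (-0.19 to +0.11) and -0.11 (-0.29 to +0.084). All 5 intervals include 0, and none of these genes had p under 0.05. Th, the enzyme that starts dopamine synthesis, had -0.17 (-0.48 to +0.13), and Slc6a3, the dopamine transporter, was not tested at 3 to 25 reads per mouse. Of 22 medium spiny neuron markers tested, 19 had a positive slope and 0 had p under 0.05, with a median of +0.054. The median was -0.003 without High-Active saline replicate 1 (24.5 g) and +0.10, with 6 positive members at p under 0.05, without High-Active amphetamine replicate 5 (26.6 g). Without the latter mouse 659 of all genes were positive at p under 0.05, beside 401 with it. Sst, the somatostatin of a striatal interneuron class, had a slope of -0.12 (unadjusted p = 0.0229), and 11 of 13 interneuron markers were negative, with a median of -0.077. Without single mice this median ran from -0.10, without Control saline replicate 4, to -0.047, without High-Active amphetamine replicate 2, and the negative members at p under 0.05 numbered 0 to 2.

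The glucocorticoid response did not pass the threshold. Fkbp5, a co-chaperone induced by glucocorticoids, was at 6.06, 6.2, 6.11, 6.06 and 5.92 log2 CPM in Control saline mice from light to heavy and at 6.09, 6.17, 6.06, 6.31 and 6.53 in Control amphetamine mice. In High-Active mice it was at 6.40, 6.27, 6.27, 5.94 and 5.99 log2 CPM after saline and 6.31, 6.38, 5.95, 5.82 and 6.00 after amphetamine, with the 2 lightest mice of each treatment above the 2 heaviest. The slope was -0.11 over the 20 mice (adjusted p = 0.956 in edgeR's quasi-likelihood test), +0.025 in Control and -0.21 in High-Active mice, and the difference between lines did not pass the threshold (unadjusted p = 0.0584). Of 26 glucocorticoid response genes tested, 20 had a negative slope, with a median of -0.058, 0.0091 in Control and -0.12 in High-Active mice. In High-Active mice 7 of them had a negative slope at p under 0.05, beside 1.89% of all genes. Over the 20 mice 2.3% of all genes were negative at p under 0.05. Of this list those were the metallothioneins Mt1 (-0.28) and Mt2 (-0.22) and the kinase Map3k6 (-0.30). The glucocorticoid receptor Nr3c1 itself was positive (+0.085). Without single mice the negative count ran from 2 to 6, the last without Control amphetamine replicate 4 (45.4 g).

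Most cytosolic ribosomal protein genes had slopes of 1 sign. Of 77 tested, 72 had a negative slope, where 51.6% of all genes had a positive one, and the median was -0.060, beside 0.0024 over all genes. At p under 0.05 there were 15 negative and 0 positive members, beside 2.3% and 2.71% of all genes, and none passed the threshold. Rpl9 (-0.084), Rpl39 (-0.070), Rplp1 (-0.099) and Rpl38 (-0.076) had the smallest p. The median was -0.043 in Control and -0.078 in High-Active mice, and it ran from -0.081 to -0.048 when each mouse was left out in turn. The negative count was 0 without High-Active saline replicate 1 (24.5 g) or replicate 2 (42.0 g). It was 1 without High-Active amphetamine replicate 2 (28.2 g) and 2 without Control saline replicate 3 (24.2 g). It was 9 without Control amphetamine replicate 5 (37.9 g) and 26 without High-Active amphetamine replicate 5 (26.6 g). In the last fit 548 of all genes were negative at p under 0.05, beside 340 with this mouse. Within the lines, 1 member was negative at p under 0.05 in Control and 11 in High-Active mice, beside 1.47% and 1.89% of all genes.

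Nuclear genes of the respiratory chain were mostly negative too. Of 83 tested, 72 had a negative slope, with a median of -0.033, and 9 were negative and 0 positive at p under 0.05, beside 2.3% and 2.71% of all genes. Ndufs5, a subunit of complex I, had -0.51, Ndufb2 of the same complex -0.20, Uqcrh of complex III -0.090 and Cox5a of cytochrome oxidase -0.073. Without single mice the negative count ran from 6 to 24. It was 24 without High-Active amphetamine replicate 5, beside 548 of all genes in that fit and 340 with this mouse. It was 15 without Control saline replicate 5, beside 382 of all genes in that fit. Within the lines, 2 members were negative and 1 positive at p under 0.05 in Control mice. In High-Active mice 6 were negative and 0 positive. Over all genes 1.47% and 1.89% were negative at that p in Control and High-Active mice. Of the 12 genes of the mitochondrial genome 11 were negative, with a median of -0.025. The 1 member at p under 0.05 was mt-Co3, a subunit of cytochrome oxidase (-0.12), beside 2.3% of all genes with a negative slope. The median ran from -0.068 to +0.025 without single mice, and the positive value and a count of 0 came without High-Active amphetamine replicate 3 (47.4 g). The 76 mitochondrial ribosomal protein genes, a group added after Mrps14 and Mrps25 had been seen, included 56 negative slopes and a median of -0.023.

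Heat shock and chaperone genes were negative in 29 of 30 cases, with a median slope of -0.093, -0.13 in Control and -0.064 in High-Active mice. The 2 with p under 0.05 were Fkbp4, a co-chaperone of steroid receptors (-0.11), and Hspe1, the mitochondrial co-chaperonin (-0.087). Over all genes 2.3% were negative at that p. The negative count of this list was 17, with a median of -0.14, without High-Active saline replicate 1 (24.5 g), beside 279 of all genes in that fit. It was 6 without Control amphetamine replicate 5, 4 without Control amphetamine replicate 2 and 1 to 3 without each other mouse. The median was -0.18 in amphetamine-injected and -0.022 in saline-injected mice alone. The 22 immediate early genes, which neuronal activity induces, had a median of -0.073 with 0 members at p under 0.05, and it was -0.15 without Control saline replicate 3 (24.2 g) and +0.070 without High-Active amphetamine replicate 3 (47.4 g).

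**Figure D4:**
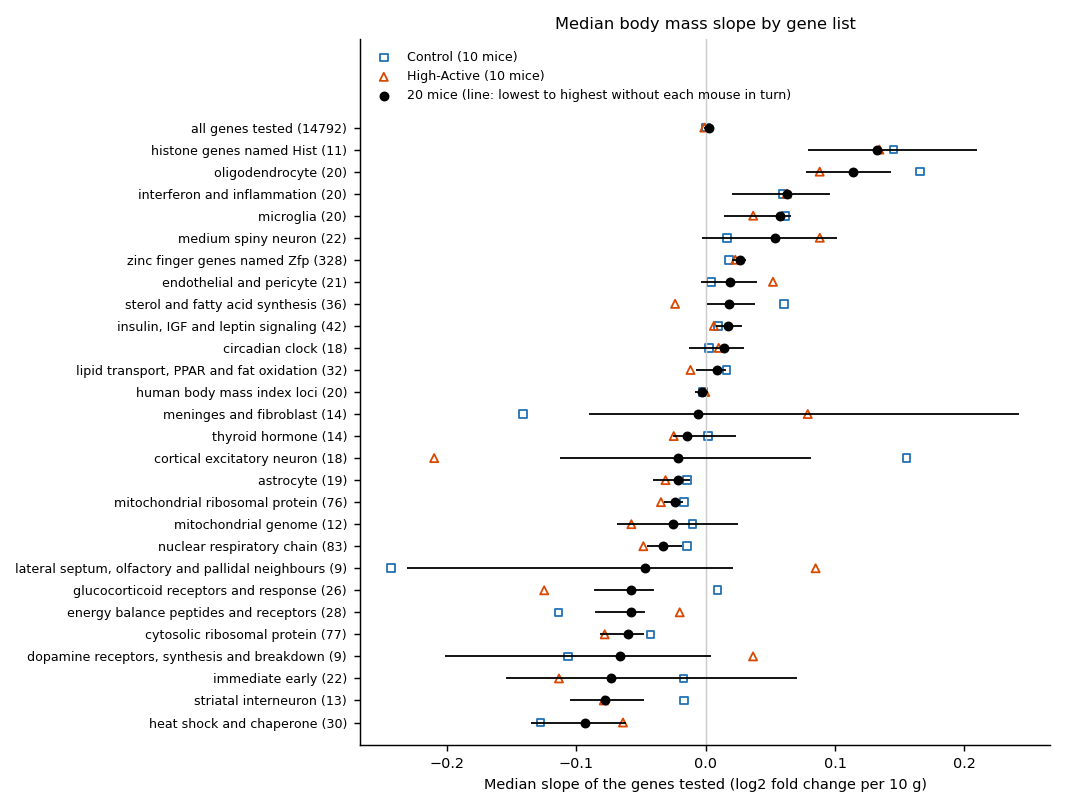
Median slope in log2 fold change per 10 g of the tested genes of each list (number in parentheses) in the 20 mice (black, with a line from the lowest to the highest value when each mouse was left out in turn), in 10 Control mice (squares) and in 10 High-Active mice (triangles). Cytosolic ribosomal protein, respiratory chain and chaperone genes lie below 0 in both lines, as do others such as energy balance, interneuron and astrocyte genes. Oligodendrocyte genes lie above 0 in both lines, as do others such as microglial and interferon genes. The choroid plexus, ependyma and red blood cell lists are not drawn.

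Markers of oligodendrocytes, the cells that form myelin, had positive slopes in 19 of 20 cases, with a median of +0.11, +0.17 in Control and +0.088 in High-Active mice. At p under 0.05 there were 4 positive members, beside 2.71% of all genes, namely Gjc3, a gap junction protein (+0.22), Gpr37, a receptor of maturing oligodendrocytes (+0.20), Aspa, the enzyme that splits N-acetylaspartate (+0.21), and Opalin, a myelin membrane protein (+0.30). None passed the threshold. In bulk tissue more cells of a type and more RNA per cell cannot be told apart, and the amount of white matter in the dissected piece was not measured. The summed level of the 20 markers ranged from 5096 to 7930 CPM in the 10 mice below their group's mean mass and from 4416 to 7630 CPM in the 10 above it, so that the ranges overlapped. Leaving out single mice kept the median between +0.078 and +0.14, and the count ran from 1, without High-Active amphetamine replicate 3 (47.4 g), to 6, without High-Active amphetamine replicate 2 (28.2 g).

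Microglial markers were positive in 16 of 20 cases with a median of +0.057, which was +0.014 without Control saline replicate 5 (45.4 g). Trem2, a phagocytic receptor (+0.19), and Fcer1g, the signaling adaptor of Fc receptors (+0.22), had p under 0.05, beside 2.71% of all genes, and this count ran from 0 to 3 without single mice. Aif1, the microglial calcium-binding protein, had +0.12 (interval -0.031 to +0.27). Of 20 interferon and inflammation genes 4 were positive at p under 0.05, beside 2.71% of all genes. This count ran from 0 to 4 without single mice, with medians from +0.021 to +0.096 around +0.063. Among the 4 were Ifitm3 (+0.21), Oasl2 (+0.35) and Irf7 (+0.38), and the complement component C3 was negative (-0.79). Without Control saline replicate 5 the slopes of Oasl2 and Irf7 were +0.16 and +0.22, and Irf7 was at 22 to 114 reads per mouse. Among astrocyte genes, Gjb6, the astrocytic connexin (-0.22), Aldoc (-0.11) and Fgfr3 (-0.094) were negative at p under 0.05, beside 2.3% of all genes. Gfap, the intermediate filament of reactive astrocytes, had +0.088 with a wide interval of -0.26 to +0.44. The 19 astrocyte genes had a median of -0.022, from -0.041 to -0.012 without single mice, with 1 to 4 negative members at p under 0.05.

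Other lists held few or no genes at p under 0.05. There were 0 of 36 sterol and fatty acid synthesis genes over the 20 mice, where 4 of 36 were positive at p under 0.05 in Control mice (beside 1.34% of all genes) and 0 in High-Active mice (1.97%), with 28 and 13 positive slopes. There were also 0 of 18 circadian clock genes, 0 of 21 endothelial and pericyte genes and 0 of 9 dopamine receptor, synthesis and breakdown genes. There was 1 of 32 lipid transport and fat oxidation genes, Acadm, a dehydrogenase of fat oxidation (-0.060), and 1 of 14 thyroid hormone genes, the receptor Thra (-0.065). Both slopes were negative, where 2.3% of all genes were negative at p under 0.05. For markers of tissue beside the striatum the medians of the lines differed in sign, with few members at p under 0.05, and no test was made of the difference between medians. Over all genes 2.81% and 3.87% had p under 0.05 in Control and High-Active mice, and 2.43% for the slope difference. The 14 choroid plexus genes had a median of -0.84 in Control and +0.83 in High-Active mice, with 0 and 1 member at p under 0.05 and 2 at p under 0.05 for the slope difference. The 18 cortical excitatory neuron genes had +0.16 and -0.21, with 1 and 0 members and 0 for the difference, and the 10 ependymal genes had -0.25 and +0.35, with 1 and 0 members and 0 for the difference. Over the 20 mice the choroid plexus median was +0.12, and -0.81 without High-Active amphetamine replicate 3 (47.4 g). Red blood cell genes were negative in 5 of 5 cases, with a median of -0.60 and 0 members at p under 0.05. The median was -0.088 without High-Active amphetamine replicate 5 (26.6 g), and it was -1.04, with 4 members at p under 0.05, without High-Active saline replicate 2 (42.0 g).

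The sign of a slope also went with the length of the gene. Genes were divided into 4 equal classes by the total length of their exons in the annotation. In the shortest class, of 60 to 2753 bases, 40.2% of 3663 genes had a positive slope and the median was -0.017, and in the longest class, of 6853 to 123179 bases, 65.1% of 3661 genes had a positive slope and the median was 0.018. The median of the 2 middle classes lay between these values, and the order from short to long held in Control mice (-0.014 to 0.0089) and in High-Active mice (-0.023 to 0.021). When each mouse was left out in turn, the positive share stayed between 35.9% and 42.8% in the shortest and between 61.0% and 68.6% in the longest class. In amphetamine-injected mice alone the shares were 45.7% and 55.8%. Of the 77 cytosolic ribosomal protein genes 60 belonged to the shortest class. So did 64 of the 83 respiratory chain genes and 43 of the 76 mitochondrial ribosomal protein genes. The median slopes of these lists were -0.060, -0.033 and -0.023, beside -0.017 in this class. The part of gene length in these lists was not tested.

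**Figure D5:**
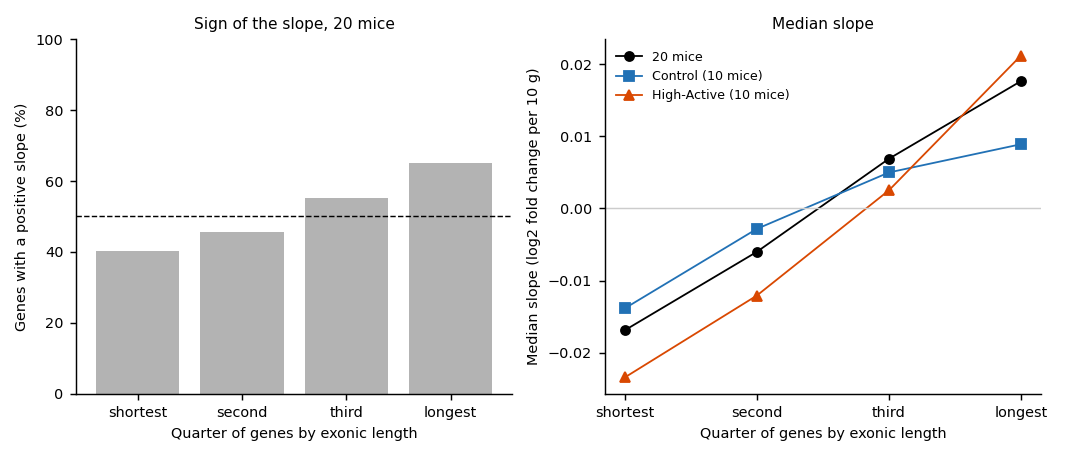
Left, percent of genes with a positive body mass slope in 20 mice, by class of exonic length, with a dashed line at 50%. Right, median slope in log2 fold change per 10 g by class in 20 mice, 10 Control and 10 High-Active mice. The share rises from 40.2% in the shortest to 65.1% in the longest class.

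Within the 10 Control mice 0 of 14792 genes passed the threshold (0% called) with edgeR's quasi-likelihood test, 2 with DESeq2, and 415 had p under 0.05 (2.81% of genes tested), 198 positive (1.34%) and 217 negative (1.47%). The smallest p belonged to Hbb-bt, an adult beta globin of red blood cells (-1.82 per 10 g). It was at 2.87 and 2.65 log2 CPM in the 2 lightest Control saline mice and at -1.06 in the heaviest. Hbb-bt can share reads with Hbb-bs, and in High-Active mice its slope was -0.32. Arsb, a lysosomal sulfatase (+0.17), Vps8, a subunit of the endosomal CORVET complex (+0.18), Mx1, an interferon-induced GTPase (+1.58), Sat1, the enzyme that acetylates polyamines (-0.19), and the antisense transcript 1600020E01Rik (-0.29) were the others of smallest p. In High-Active mice Arsb had a slope of -0.0050 and Vps8 of -0.070. Mx1 was weakly expressed, at 3 to 49 reads per Control mouse. Over all mice its slope was +0.27 without Control saline replicate 5 and +0.87 without High-Active saline replicate 1, the lowest and highest without single mice.

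Within the 10 High-Active mice 0 of 14792 genes passed the threshold (0% called) with edgeR's quasi-likelihood test, 36 with DESeq2, and 572 had p under 0.05 (3.87%), 292 positive (1.97%) and 280 negative (1.89%). Dnhd1, a dynein heavy chain domain gene (chromosome 7, 105650827 to 105721799, plus strand), was at 4.31, 4.04, 3.68, 3.79 and 3.5 log2 CPM in saline mice from light to heavy and at 4.25, 3.86, 3.92, 3.36 and 3.10 in amphetamine mice. The lightest mouse of each treatment was highest and the heaviest lowest. Its slope was -0.51 in High-Active and +0.070 in Control mice, where it stayed between 2.89 and 3.48 log2 CPM. Amd1, the decarboxylase that supplies polyamine synthesis (chromosome 10, 40287458 to 40302186, minus strand), was at 6.68, 6.64, 6.45, 6.31 and 6.18 log2 CPM in High-Active saline and 6.83, 6.78, 6.32, 6.43 and 5.97 in High-Active amphetamine mice. Its slope was -0.36, and +0.019 in Control mice, but Amd1 and its near copy Amd2 can share reads. Tekt5, a sperm tail protein, had -0.63 in High-Active mice. Families differed in mass here, so these orders by mass cannot be told apart from differences between families.

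The slope differed between the lines past the threshold for 1 of 14792 genes (0.00676% called), and 359 genes had an unadjusted p under 0.05 (2.43%). The gene was Rps13-ps1, a processed pseudogene of a ribosomal protein (chromosome 8, 87047689 to 87048226, plus strand), with a High-Active minus Control difference of +6.19 and an adjusted p of 0.000477 in edgeR's quasi-likelihood test. Control mice had 164 to 527 reads of it. Of the 10 High-Active mice 9 had 0 or 1 read, and the heaviest, of 47.4 g, had 271. The difference thus rested on 1 mouse, and without it no gene passed. Its sibling of 42.0 g was among the 9. The size of a slope on such counts depends on the prior count and is no measure of a graded change.

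The next genes by p of the difference did not pass. Nae1, a subunit of the enzyme that activates NEDD8 (chromosome 8, 104511028 to 104534637, minus strand), was at 5.19, 5.23, 5.28, 5.40 and 5.53 log2 CPM in High-Active saline and 5.23, 5.32, 5.38, 5.49 and 5.54 in High-Active amphetamine mice from light to heavy. In Control mice it was at 5.43, 5.36, 5.34, 5.27 and 5.19 log2 CPM after saline and 5.32, 5.45, 5.44, 5.41 and 5.37 after amphetamine. The order by mass was complete in both High-Active groups and reversed in Control saline mice. The slopes were +0.16 in High-Active and -0.083 in Control mice. Zbtb12, a zinc finger gene, had +0.34 in High-Active and -0.13 in Control mice, and Ccdc28b -0.24 and +0.26. D330050G23Rik had -1.40 in High-Active and -0.13 in Control mice (difference -1.27, unadjusted p = 0.000833 in edgeR's quasi-likelihood test).

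The slopes of the lines, which share no mice, were set side by side. Of the 100 genes with the smallest p in Control mice, 60 had the same sign in High-Active mice, where 2 genes of the same and 2 of the opposite sign had p under 0.05. Of the 100 with the smallest p in High-Active mice, 51 had the same sign in Control mice, where 5 genes of the same and 1 of the opposite sign had p under 0.05. Over all 14792 genes 56.1% had the same sign in both lines. The Pearson correlation across genes of the slopes of the lines was -0.076 over all genes and 0.15 over the 7396 genes above the median level, as a description over genes that are not independent. In total 21 genes had p under 0.05 in both lines, 15 of them with the same sign.

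Body mass was set beside 8 other measures of the mice, with group means removed, and none passed an adjusted p of 0.1 (Benjamini-Hochberg over the 8 relations). The largest r was that with the re-phenotyping distance in the home cage, r = -0.45 (permutation test, p = 0.152, adjusted p = 0.519) and rho = -0.33 (permutation test, p = 0.172, adjusted p = 0.767), and r was -0.31 without the 2 mice of most extreme centred mass. Among Control mice alone it was -0.068 (p = 0.853 by exact permutation, n = 10) and among High-Active mice alone -0.59 (p = 0.158 by exact permutation, n = 10). The distance after injection had r = -0.38 (permutation test, p = 0.242) and rho = -0.078 (p = 0.767), and reads counted on genes r = 0.33 (permutation test, p = 0.242) and rho = 0.15 (p = 0.559). The summed level of oligodendrocyte markers had r = 0.26 (permutation test, p = 0.324) and rho = 0.24 (p = 0.339), and that of cortical excitatory neuron markers r = 0.099 (permutation test, p = 0.754) and rho = 0.11 (p = 0.701). Genes detected, day of birth and the distance at postnatal day 60 had r of 0.30, 0.19 and 0.048 (permutation tests, p = 0.279, 0.478 and 0.871) and rho of 0.22, 0.22 and -0.11 (p = 0.397, 0.385 and 0.70). The first 4 principal components of the group-centred levels, which held 14.3%, 10.2%, 9.75% and 9.04% of the variance, each had an absolute correlation with mass of at most 0.155.

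The most active mouse, High-Active amphetamine replicate 5, was also light at 26.6 g, and the number of genes with p under 0.05 was 1207 without it, beside 741 with it. With the re-phenotyping distance added to the model it was 1213. No gene passed the threshold with edgeR's quasi-likelihood test in either fit.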

How the data were processed

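RNA from the striatum of 20 mice was sequenced as stranded paired-end libraries. The authors aligned the reads to GRCm38 with TopHat2 2.0.10 and HTSeq 0.6.1 assigned them to genes of Ensembl 75, and the deposited values are raw counts per gene for each mouse, without normalization. The strand setting of the counting is not given in the sources used here. The 5 summary lines of each table were left out, among them reads on no gene (8.17 to 9.55% of each table's total) and reads with more than one match (5.70 to 7.01%). Body mass, parents, birth date and activity came from the sample labels. The methods state that the mice came from different families, whereas the labels name shared parents.

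Genes over 1 CPM in at least 3 mice were normalized by TMM and fitted with edgeR 4.0.16 (glmQLFit, glmQLFTest; R 4.3.3), with a mean for each group and a slope for mass per 10 g. The same genes were fitted in each line alone, and a model with a slope per line tested the difference. Levels are log2 CPM with a prior count of 2. Correlations used values centred on group means, with 100000 permutations of mass within groups, or all 14400 within a line, two-sided, and were computed for 150 named genes. Alternatives used DESeq2 1.42.0 and limma 3.58.1. The script was tested on simulated data.

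Genes were named by rule: the 10 of smallest p in each direction over all mice, the 3 of smallest p in each direction for each line and for the difference, up to 4 of smallest p per list, and 14 genes of energy balance, stress, glia and dopamine, chosen whatever their values. Predicted genes were left out of the values given mouse by mouse. The members and the lists were chosen with earlier results of these data known. Gene positions and exon lengths are from GENCODE on GRCm38.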

Additional observations from a re-analysis of the deposited data

Results flagged for a closer look

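In the groups of 5 mice, 116 sets of values were screened for a mouse standing far from the other 4. The sets covered mass, the 8 other measures and 20 genes. Such a mouse was found in 12 sets, where chance alone gives about 1 in 20. The sets are not independent, and genes such as Rnf41, Mrps25 and Rps13-ps1 were chosen by their p in these mice. The count is therefore no measure of an excess over chance. Among the measures, High-Active amphetamine replicate 2 had 32388971 reads on genes, below the next mouse of its group at 49019871. The re-phenotyping distance was 3.18 in High-Active amphetamine replicate 5, where the next mouse had 1.36, and 0.474 in Control amphetamine replicate 2, which also had a distance after injection of 57.1, where the next had 30.2. The labels give both distances without a unit.

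Among genes, Rnf41 was at 6.03 log2 CPM in Control saline replicate 3, the lightest mouse, and Mrps25 at 4.92 in High-Active amphetamine replicate 3, the heaviest. Without these 2 mice their r with mass was -0.55 and -0.54. Aif1 was at 2.56 log2 CPM in the same heaviest mouse, and its r was 0.37 with and -0.014 without the 2 mice. Th was at 3.79 log2 CPM in Control amphetamine replicate 2, Mc4r at 1.87 in High-Active saline replicate 5 and Lepr at 1.03 in High-Active amphetamine replicate 4.

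Rps13-ps1 passed the test of the difference between the lines, with a High-Active minus Control slope of +6.19. It was at 2.31 log2 CPM in High-Active amphetamine replicate 3 and at -3.67 or below in the other 9 High-Active mice, and at 2.42 in Control saline replicate 5, below the other 4 Control saline mice.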

How the results depend on the processing

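No gene passed in the 20 mice under the other alternatives, but 4 did with no filter on low counts, 6 with DESeq2 and 13 with the likelihood-ratio test. The same 3 settings gave 1, 2 and 26 genes in Control mice and 2, 36 and 60 in High-Active mice, where one fit over both lines gave 7. For the difference between lines DESeq2 gave 6, the likelihood-ratio test 15 and limma-voom with a family block 0. Leaving out each mouse gave 0 in all mice, 0 to 1 in Control, 0 to 2 in High-Active and 0 to 1 for the difference. The causes were not tested.

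Genes with p under 0.05 in the 20 mice numbered 508 to 1207 without each mouse, 1142 with no filter (which tests 26116 genes), 1213 with the re-phenotyping distance, 1436 with no group means and 485 in amphetamine-injected mice. Without each mouse they numbered 308 to 769 in Control, 421 to 1185 in High-Active and 320 to 561 for the difference, and with no filter 779, 939 and 871.

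The slopes of 12 named genes changed sign, those of Rps13-ps1 and Ubash3a from +1.22 and +0.85 in the 20 mice. With counts summed over families, Ccdc28b had 0.048, Drd1 -0.0064 and Lepr -0.058. With cortical and oligodendrocyte levels as covariates, Gfap had -0.060, Lepr -0.041, Pdyn 0.00022 and Tac1 0.042. In saline-injected mice Ccdc28b had 0.11, Gfap -0.10, Lepr -0.13, Pdyn 0.065, Tac1 0.028 and Rps13-ps1 -0.35. In amphetamine-injected mice Drd1 had -0.12, Drd2 -0.049, Fto 0.00019, Mc4r 0.020 and Penk -0.089. With the re-phenotyping distance Ccdc28b had 0.030 and Ubash3a -0.69. Without the mice of lowest and highest centred mass Rps13-ps1 had -0.42, Tac1 0.028 and Ubash3a -1.13. Rps13-ps1 had -0.16 in the likelihood-ratio test and -0.33 with the family block, Drd1 -0.016 on ranks of mass and -0.0086 with day of birth, and Lepr -0.013 on log2 of mass, -0.015 with line means only and -0.011 with no group means.

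Without each mouse in turn, the slope ran from -0.14 to 0.060 for Ccdc28b, from -0.054 to 0.066 for Drd1, from -0.0050 to 0.10 for Drd2, from -0.025 to 0.0042 for Fto, from -0.057 to 0.11 for Lepr, from -0.11 to 0.013 for Mc4r. It ran from -0.0020 to 0.13 for Penk, from -0.34 to 1.90 for Rps13-ps1, from -0.11 to 0.0068 for Tac1, from -0.67 to 1.43 for Ubash3a. The correlation with mass ran from -0.28 to 0.29 for the postnatal day 60 distance and from -0.034 to 0.31 for the summed CPM of cortical excitatory neuron markers. The relation of mass with the postnatal day 60 distance was -0.11 by Spearman's rho. Leaving out mice for the relations was chosen after seeing the data.

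In all, of 3141 values of 85 named genes, 3079 kept direction and side, 15 gained a call and 47 changed sign. The replicate numbers only name mice, so no fit paired by replicate number was made. Siblings were treated by a family block in limma-voom and by counts summed over families, which called 0 genes each in the 20 mice, with 798 and 807 at p under 0.05. The family block used a correlation within families of 0.013. The sums pooled saline and amphetamine siblings and removed the means of the lines only, not of the 4 groups. With 5 mice per group, 93.8% of genes had a 95% slope interval within 1.5-fold per 10 g. These intervals were taken gene by gene, without adjustment for the number of genes. The smallest slope that could pass the threshold was not computed, for low or for high genes. Pex5l, at a mean of 6.86 log2 CPM, had a slope of +0.24 and did not pass (adjusted p = 0.643 in edgeR's quasi-likelihood test).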

Other observations

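Gene families outside the lists of the report were described after their values had been seen, and carry no test. Of 328 zinc finger genes named Zfp, 221 had a positive slope on body mass in the 20 mice, 67.4% beside 51.6% of all genes, with a median of +0.026. At p under 0.05 there were 14 positive members and 1 negative, beside 2.71% and 2.3% of all genes. The positive count ran from 9, without High-Active saline replicate 2 or Control saline replicate 3, to 24, without High-Active amphetamine replicate 5. Without the last mouse 659 of all genes were positive at p under 0.05, beside 401 with it. The medians were +0.018 in Control and +0.023 in High-Active mice. Of these genes 76 lay in the longest and 46 in the shortest of the 4 exon length classes. All 11 histone genes tested under names starting with Hist had a positive slope, with a median of +0.13, and 2 had p under 0.05, beside 2.71% of all genes. The median was +0.079 without High-Active saline replicate 1 and +0.21, with 5 members at p under 0.05, without High-Active amphetamine replicate 3, and the count was 1 without Control saline replicate 5.

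The tested markers of meninges and fibroblasts had a median slope of -0.0059, -0.14 in Control and +0.079 in High-Active mice. At p under 0.05, 1 of 14 was negative, beside 2.3% of all genes. Without single mice the median ran from -0.090, without High-Active amphetamine replicate 5, to +0.24, without Control saline replicate 3, so that its sign turned. Those of the lateral septum, olfactory and pallidal neighbors of the striatum had -0.047, -0.24 in Control and +0.085 in High-Active mice, with 0 of 9 at p under 0.05. This median was +0.021 without Control saline replicate 3 and -0.23, with 4 negative members at p under 0.05, without High-Active amphetamine replicate 3. In the last fit 490 of all genes were negative at p under 0.05. As with choroid plexus and ependyma, the medians of the lines differed in sign, and the difference between medians was not tested.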
